A study of Saccharomyces cerevisiae with 4 samples.

Results

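The yapsins are a family of aspartic proteases of the budding yeast Saccharomyces cerevisiae, encoded by YPS1, YPS3, MKC7, YPS5, YPS6 and YPS7. All 6 genes, chosen by open reading frame name (YLR120C, YLR121C, YDR144C, YGL259W, YIR039C and YDR349C), were found among the 6211 rows of the deposited table, and all 6 had a value on each of the 4 arrays. The family was picked with these same log2 ratios already known, YPS3 being among the highest in the series. The ratios of the 6 genes are therefore given as a description, without a test of their own.

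The arrays were 2-colour spotted arrays on which RNA of a strain labelled GCN2c was set against RNA of a wild-type (WT) strain. Gcn2 is a sensor kinase that is switched on by uncharged tRNA and acts on the translation factor eIF2. The design text calls GCN2c an overexpressing strain, while the sample labels call it a mutant strain; its allele, promoter and genetic background are not given. Cultures of 50 mL of either strain in YPD, a rich medium, were kept at 28 °C and harvested at an Ab660 of 0.6, and no drug or damage treatment is named for either.

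On replicates 1 and 3 the GCN2c RNA carried Cy5; on replicates 2 and 4 it carried Cy3. The columns of replicates 2 and 4 were nearly the same (SD of their difference 0.0638, against 0.852 between replicates 1 and 3), so they were averaged and counted as 1 sample, which leaves n = 3. Each value is taken as a log2 ratio with GCN2c on top and WT below. As deposited, replicates 1 and 3 correlated positively across genes with the opposite orientation (r = 0.179 and 0.293), so the 4 columns are treated as running the same way. GCN2c on top is assumed, because Cy5 is the usual numerator and GCN2c carried it on replicates 1 and 3. The same convention would put WT on top on replicates 2 and 4. The reading therefore holds only if those columns were turned before deposit, which was not tested. The titles, however, name WT first, and neither the direction nor the log base is stated, so higher and lower would trade places if the ratios run the other way. GCN2 itself stood at -0.39 and 0.10 on replicates 1 and 3 and at -0.68 on replicates 2 and 4, so no higher level was seen at its spot (mean -0.33 ± 0.39, SD, n = 3; limma adjusted p = 0.453). GCN4, the activator gene whose translation Gcn2 promotes, stood at 0.84, 0.57 and 0.37 in the same order (mean 0.59 ± 0.23; limma adjusted p = 0.180).

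Most yapsins are held at the outer face of the plasma membrane or in the cell wall by a glycosylphosphatidylinositol (GPI) anchor. They cut other secreted and surface proteins after basic residues, and they were first found through their ability to process precursors in cells that lack the Kex2 protease. They are known for their part in keeping the cell wall intact: cells without them are sensitive to wall stress. The cell wall integrity pathway answers such stress by passing a signal from surface sensors through Rho1, the kinase Pkc1 and a MAP kinase cascade ending in Slt2 to the transcription factor Rlm1.

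YPS3, a GPI-anchored member of the family, had the highest ratio of the 6. It stood at 3.49 on replicate 1, 3.64 on replicate 3, 2.93 on replicate 2 and 2.94 on replicate 4. All 4 values lay far above 0, and the orientation with GCN2c in Cy3 gave the lower ones. The mean was 3.36 ± 0.37 (SD, n = 3), about 10.2-fold if the logarithm is to base 2, which put YPS3 at rank 10 from the highest among 5995 genes with a value on every array.

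YPS1, the founding member of the family, whose transcription is known to be raised by wall stress through the Slt2 pathway, came next. It stood at 1.13 and 0.85 on replicates 1 and 3 and at 0.49 on both replicates 2 and 4, with a mean of 0.82 ± 0.32 (SD, n = 3). Every array was above 0, but the range between replicates, 0.64, was close to the size of the mean. YPS1 lay at the 93.5th percentile of the 6130 genes tested.

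The members of less described function were closer to 0. YPS6 stood at 0.26 and 0.27 on replicates 1 and 3 and at 0.76 and 0.77 on replicates 2 and 4 (mean 0.43 ± 0.29, SD, n = 3). YPS7 stood at 0.47 and 0.46 on replicates 1 and 3 and at 0.17 on both replicates 2 and 4 (mean 0.37 ± 0.17). Both were above 0 on every array, and YPS7 had the smallest spread of the family, with 16.8% of genes showing a smaller one.

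Neither of the other members kept one sign. MKC7, the relative of YPS1 found as a suppressor of the loss of Kex2, stood at -0.68 and -0.18 on replicates 1 and 3 and at 0.10 on both replicates 2 and 4 (mean -0.25 ± 0.39, SD, n = 3). YPS5 stood at 0.20 and -0.41 on replicates 1 and 3 and at 0.15 and 0.16 on replicates 2 and 4 (mean -0.02 ± 0.34). The mean of YPS5 was 0.03 when arrays were centred on their medians, 0.0076 when they were also scaled and 0.02 with a dye term, so no direction is given for it.

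**Figure D1:**
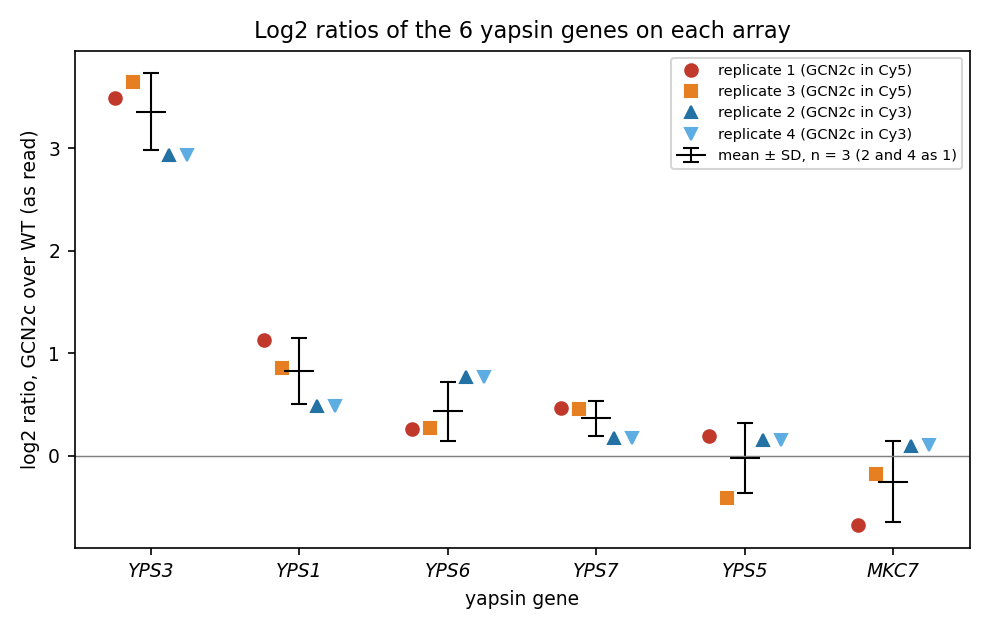
Log2 ratios of GCN2c over WT (vertical axis, as read) for the 6 yapsin genes (horizontal axis) on each of the 4 arrays, with the mean and SD over 3 replicates, replicates 2 and 4 counted as 1. YPS3 lies between 2.93 and 3.64 on every array, whereas the highest value of any other member is 1.13.

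In order of the mean the family thus ran YPS3, YPS1, YPS6, YPS7, YPS5, MKC7. The step below YPS3 was the one larger than the spread: YPS3 exceeded YPS1 by 2.37, 2.79 and 2.45 on replicates 1 and 3 and on the average of replicates 2 and 4 (mean difference 2.53 ± 0.22, SD, n = 3). It exceeded MKC7 by 4.17, 3.82 and 2.84, the widest gap of YPS3 to another member by the mean (3.61 ± 0.69, SD, n = 3). Below it each gene overlapped the next in this order across replicates, although all replicates of YPS1 (lowest 0.49) lay just above those of YPS7 (highest 0.47). The median over the 6 genes was 0.40, and 0.37 over the 5 without YPS3, against -0.06 over all genes tested.

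In the limma fit across all 6130 genes, 1 yapsin gene, YPS3, passed as higher (Benjamini-Hochberg adjusted p under 0.05) and none passed as lower. This threshold was passed as higher by 1.73% of all genes and as lower by 0.326%. YPS3 alone also passed one-class SAM on the 3 replicates, in which 3.18% of genes passed as higher and 0.250% as lower. Among the other 5 members only YPS1 had an unadjusted p under 0.05, which 10.0% of all genes reached as higher and 10.7% as lower. The limma adjusted p of YPS1 was 0.126. It was 0.0488 without replicates 2 and 4 and 0.0519 with a dye term, but 0.315 without replicate 1 and 0.491 without replicate 3. Since the family was chosen on this same contrast, nothing is read from these counts and p-values. With replicates 2 and 4 turned in sign, the mean of YPS3 was 1.40.

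The dye orientations ordered the members differently. YPS3, YPS1 and YPS7 were higher where GCN2c was in Cy5, by 0.63, 0.50 and 0.29. MKC7, YPS6 and YPS5 were lower there, by -0.53, -0.50 and -0.26 as differences of the same kind (mean of replicates 1 and 3 minus replicates 2 and 4). Only 1 independent hybridisation had GCN2c in Cy3, so dye and replicate cannot be told apart in these differences. For MKC7, YPS6 and YPS5 they were larger than the mean ratio, and for YPS7 a little smaller.

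**Figure D2:**
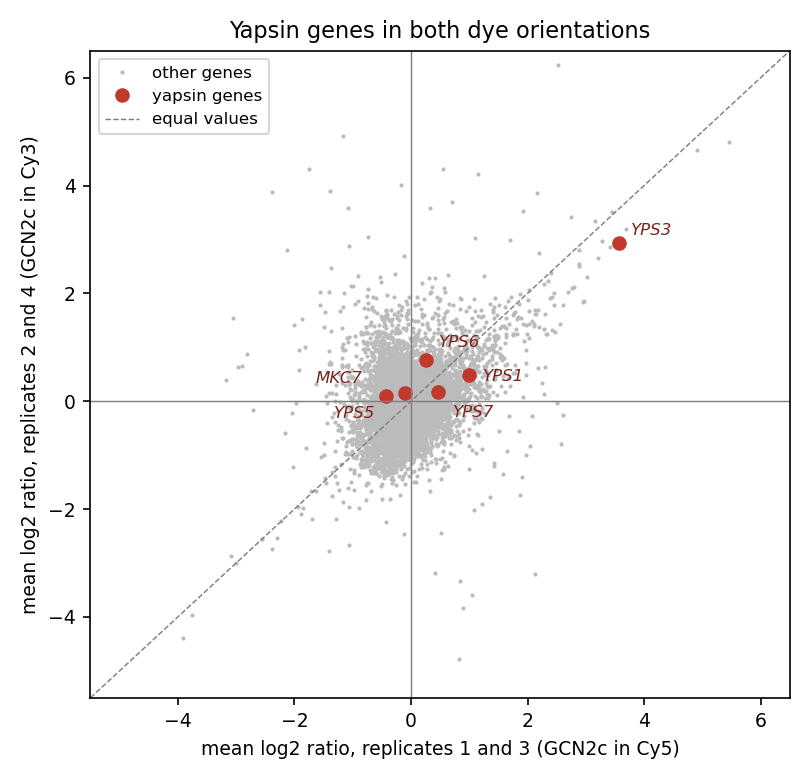
Each point is a gene, with its mean log2 ratio over replicates 1 and 3 (GCN2c in Cy5) on the horizontal axis and over replicates 2 and 4 (GCN2c in Cy3) on the vertical axis; the dashed line marks equal values, and 5 of 5997 genes fall outside the axes. YPS3 lies at 3.57 and 2.94 near the dashed line, apart from the main cloud, while the other yapsin genes lie within it or at its edge.

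YPS1 and YPS3 are neighbours on chromosome XII, with YPS1 next to YPS3 in the RefSeq gene order. The other members lie elsewhere, MKC7 and YPS7 on chromosome IV, YPS5 on chromosome VII and YPS6 on chromosome IX. SRN2, beyond YPS1, stood at -0.85 ± 0.58 (SD, n = 3), and TML25, beyond SRN2, at -0.66 ± 0.47. YLR122C, on the far side of YPS3, stood at -0.20 ± 0.67, and YLR125W, the next tested gene in the RefSeq gene order, at 0.72 ± 0.24. The values beside the pair were of mixed sign.

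Neighbours were the 2 nearest tested genes on each side in the RefSeq gene order. The 20 that are no yapsin genes had means between -0.85 and 0.72 and a median of -0.04. None passed limma after adjustment, against 2.06% of all genes in either direction. By SAM none passed either, beside 3.18% of genes as higher and 0.250% as lower. At an unadjusted p under 0.05 there were 3 of the 20, beside 20.7% of all genes in either direction: SRN2 and TML25 as lower and YLR125W as higher. Beside MKC7, SAN1 stood at -0.17 and TAF12 at -0.07. Beside YPS5, VEL1 stood at 0.34 and YGL260W at 0.44. Beside YPS6, the glutathione transferase gene GTT1 stood at 0.60 and PAU15 at 0.39, and beside YPS7, ATP22 stood at 0.43 and PAL1 at -0.15.

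**Figure D3:**
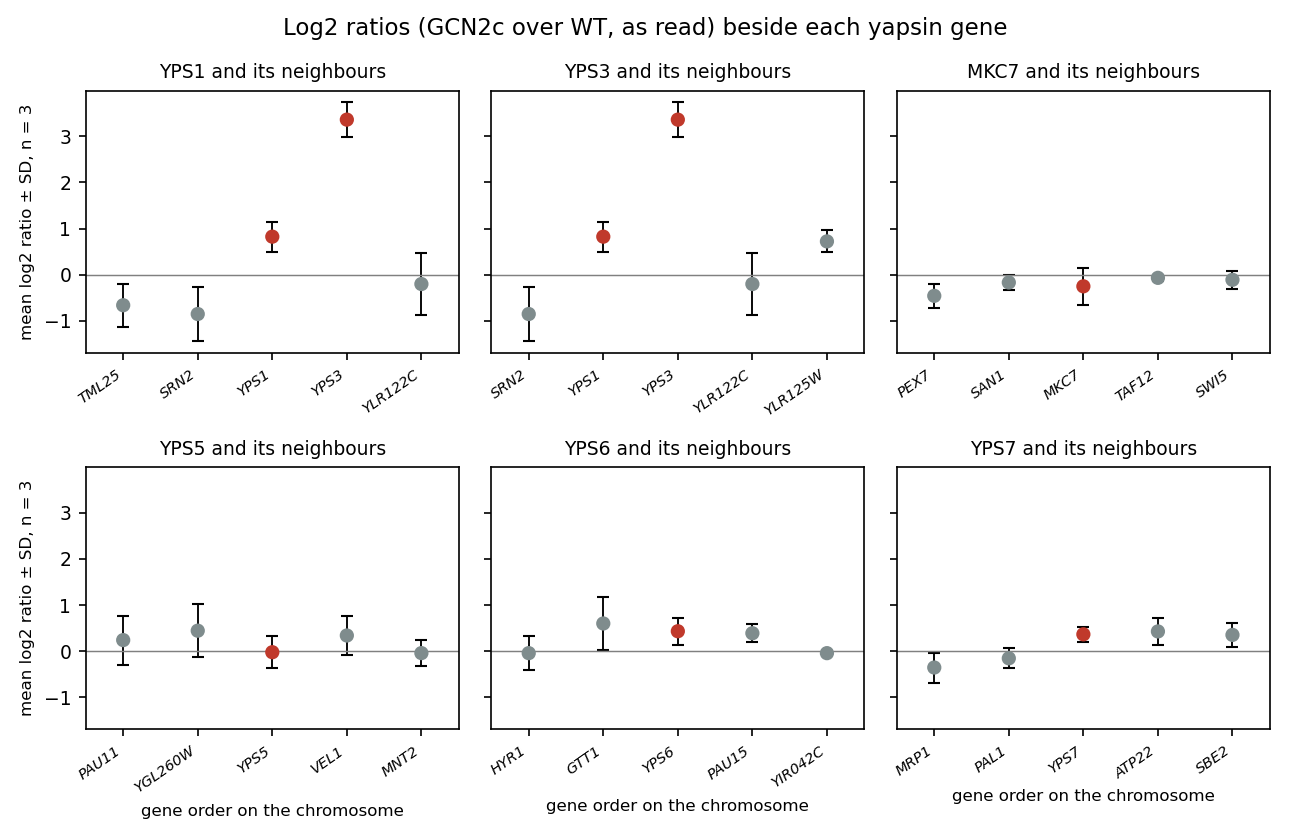
Mean log2 ratios with SD over 3 replicates (vertical axis) of each yapsin gene (red) and its neighbours (grey), in chromosome order. Neighbours are the 2 nearest tested genes on each side in the RefSeq gene order. YPS3 stands at 3.36 between YPS1 at 0.82 and YLR122C at -0.20, and no grey point exceeds 0.72.

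The genes whose 3 replicate values lay nearest to those of YPS3 were sought by Euclidean distance over replicate 1, replicate 3 and the average of replicates 2 and 4. NCW2, which encodes a structural cell wall protein, was the nearest, at 3.48, 3.34 and 2.86 (distance 0.31). MSS11, a transcription factor gene of filamentous growth, followed at 3.15, 3.41 and 2.96 (distance 0.42). GSC2, which encodes a catalytic subunit of glucan synthase that is made under stress, stood at 3.64, 3.26 and 3.51 (distance 0.71). The arginine synthesis gene ARG4 (distance 0.71) and the methionine synthesis gene STR3 (distance 0.81) completed the first 5. NCW2 and GSC2 are also on the cell wall list described next. With 3 points per gene this likeness mainly reflects a similar height.

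A list of 20 genes, mostly of the cell wall, was drawn up from general knowledge as dependent on Rlm1, the last factor of the integrity pathway. It held more genes past the threshold than any other list examined. Of the 20, 8 rose, none fell and 12 did not pass limma (1.73% of all genes were past it as higher and 0.326% as lower). The list median was 1.15, against -0.06 over all genes tested, and 16 of the 20 were above 0 on every replicate, as were 18.5% of all genes. By SAM 11 were higher and none lower, beside 3.18% and 0.250% of all genes. At an unadjusted p under 0.05, 15 were higher and 1 was lower, beside 10.0% and 10.7%. The list was drawn up with earlier results of these data known, so it is not independent evidence of a direction.

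The 8 that rose include genes of wall enzymes and wall proteins, SLT2 and KDX1. GSC2, with 3.64 and 3.26 on replicates 1 and 3 and 3.51 on the average of the others, showed a rise of 3.47 ± 0.19 (SD, n = 3; limma adjusted p = 0.0052). NCW2 rose by 3.23 ± 0.33 (adjusted p = 0.0058). KDX1, a kinase-like relative of SLT2, stood at 1.99, 2.33 and 3.85 on the same replicates, a rise of 2.73 ± 0.99 with the widest spread of the 8. SLT2, the MAP kinase gene, rose by 2.31 ± 0.10 with 2.29, 2.42 and 2.23, which is among the tightest sets of values here (adjusted p = 0.0089).

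PIR1, a structural wall protein, rose by 1.96 ± 0.63, and CRH1, a transglycosylase that joins chitin to glucan, by 1.74 ± 0.44. DFG5, a GPI-anchored wall enzyme, rose by 1.35 ± 0.20 and PRM5 by 1.31 ± 0.12 (limma adjusted p between 0.0332 and 0.0391 for these and for KDX1). YPS3 thus lay between GSC2 and NCW2 in height, while YPS1 at 0.82 lay close to PST1 at 0.80, which did not pass. Without replicate 3, 4 of the 8 passed, GSC2, NCW2, SLT2 and KDX1, and the limma adjusted p was 0.0666 for CRH1, 0.0505 for PIR1, 0.142 for DFG5 and 0.181 for PRM5. DFG5 also missed the threshold without replicate 1 (adjusted p = 0.0663).

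On the low side, 2 genes of the list were below 0 on every replicate, TIP1 and CWP1. TIP1, a cell wall mannoprotein, stood at -1.49, -1.33 and -2.77 (mean -1.86 ± 0.79, SD, n = 3; limma adjusted p = 0.0643). It passed as lower without replicate 1 (adjusted p = 0.0217), without replicate 3 (adjusted p = 0.0269) and without replicates 2 and 4 (adjusted p = 0.0233). Each of these fits rests on only 2 replicate values. They called 31, 13 and 80 genes lower in that order, against 20 with all replicates. The passes are therefore not read as added support for a fall. CWP1, another wall mannoprotein, stood at -0.30 and did not pass. FKS1, the main glucan synthase subunit beside GSC2, and CCW14 were of mixed sign across replicates. Their means were 0.32 and 0.65, neither past the threshold.

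**Figure D4:**
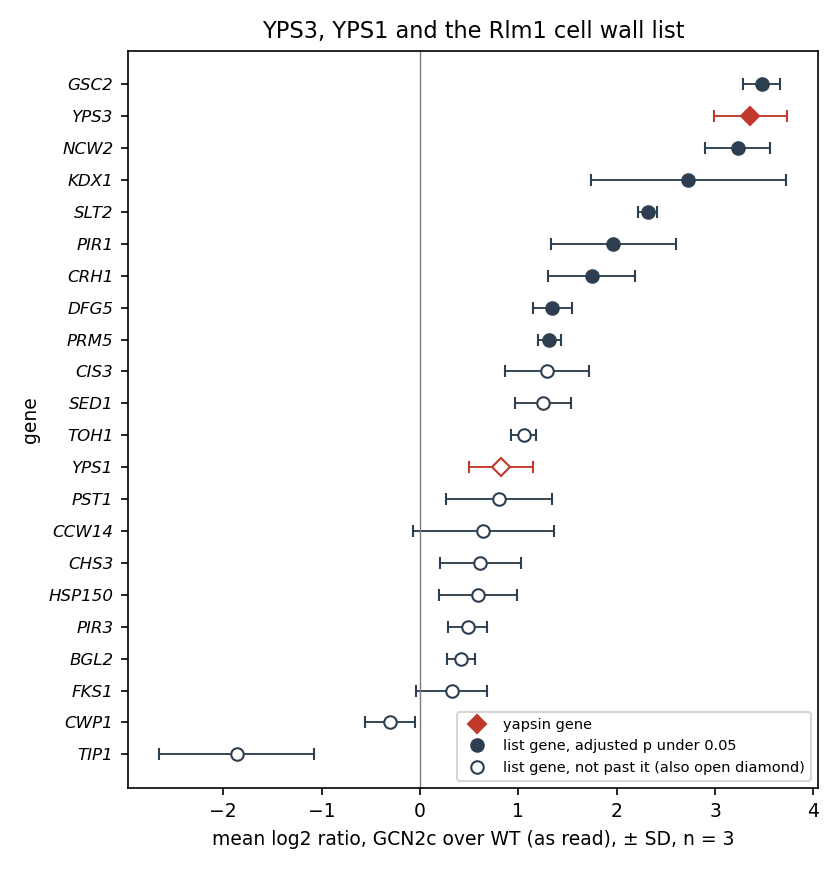
Mean log2 ratios with SD over 3 replicates (horizontal axis) of the 20 genes of the Rlm1 list and, as diamonds, of YPS3 and YPS1, in order of their mean. Filled symbols passed limma at an adjusted p under 0.05. YPS3 at 3.36 falls between GSC2 at 3.47 and NCW2 at 3.23, and YPS1 at 0.82 falls among genes that did not pass.

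The signalling list of the integrity pathway held sensors, Rho1 regulators, kinases, phosphatases and the transcription factor genes RLM1, SWI4 and SWI6. Of its 26 genes 1 rose, SLT2, which is also on the Rlm1 list, none fell and 25 did not pass limma, beside 1.73% of all genes as higher and 0.326% as lower. At an unadjusted p under 0.05, 9 were higher and 1 lower, beside 10.0% and 10.7% of all genes, and by SAM 3 were higher and none lower, beside 3.18% and 0.250%. The list median was 0.21, against -0.06 over all genes. The GTPase-activating protein gene BAG7 stood at 1.24, the phosphatase gene PTP2 at 1.32 and RLM1 at 1.05, all above 0 on every replicate. The exchange factor gene ROM1 stood at 0.85, RHO1 at 0.75 and PKC1 at 0.58. The sensor gene WSC4 stood at -0.93 and MID2 at 0.07, and the cascade kinase genes BCK1 at -0.40 and MKK1 at -0.38. BAG7 and PTP2 passed without replicates 2 and 4 (limma adjusted p = 0.0317 and 0.0233), as did WSC4 on the lower side (adjusted p = 0.0467). That fit rests on 2 replicates, both with GCN2c in Cy5. It called 273 genes higher and 80 lower, against 106 and 20 with all replicates. None of these genes passed without replicate 1 or without replicate 3.

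Another list held other surface proteins that share the GPI anchor of the yapsins. Of 41 genes tested, 3 rose, CRH1, DFG5 and PLB3, 1 fell, PLB2, and 37 did not pass limma, beside 1.73% of all genes as higher and 0.326% as lower. At an unadjusted p under 0.05, 7 were higher and 7 lower, beside 10.0% and 10.7% of all genes, and by SAM 5 were higher and 1 lower, beside 3.18% and 0.250%. The list median was 0.15, against -0.06 over all genes. PLB3, a phospholipase B, rose by 1.28 ± 0.27 (SD, n = 3; limma adjusted p = 0.0485), while its relative PLB2 fell by 1.95 ± 0.53 (adjusted p = 0.0328). Of these 41 genes 7 are also on the Rlm1 list, CRH1 and DFG5 among them. All 4 calls were lost without replicate 3, with adjusted p = 0.0505 for PLB2 and 0.252 for PLB3, and those of DFG5 and PLB3 without replicate 1 (adjusted p = 0.0636 for PLB3).

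A further list covered the building, attachment and later remodelling of the anchor. None of its 28 genes tested passed limma in either direction, beside 2.06% of all genes. By SAM none passed either, beside 3.18% of genes as higher and 0.250% as lower. At an unadjusted p under 0.05 none were higher and 4 were lower, beside 10.0% and 10.7% of all genes. The list median was -0.20, against -0.06 over all genes, and 13 of the 28 were below 0 on every replicate, as were 28.1% of all genes. SMP3, a mannosyltransferase, had the lowest mean at -0.74, and GAA1 and GPI17, of the transamidase that joins the anchor to the protein, stood at -0.48 and -0.63.

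A small list held 4 surface protein genes drawn up as possible yapsin substrates. Of these the glucan-remodelling enzyme Gas1 and the signalling mucin Msb2 are known to be cut by yapsins. GAS1 stood at 0.17, 0.24 and 0.05 (mean 0.15 ± 0.10, SD, n = 3). MSB2 stood at 1.44, 1.33 and 0.84, above 0 on every replicate (mean 1.20 ± 0.32; limma adjusted p = 0.0600). CIS3, a structural wall protein, stood at 1.29 and UTR2, a relative of CRH1, at -0.30. CIS3 is also on the Rlm1 list and was counted there, and GAS1 and UTR2 are also on the list of GPI surface proteins. None of the 4 passed limma, beside 2.06% of all genes in either direction. MSB2 and CIS3, 2 of the 4, were higher at an unadjusted p under 0.05 and by SAM, beside 10.0% and 3.18% of all genes, and none were lower by either. Both passed without replicates 2 and 4 (limma adjusted p = 0.0233 for MSB2 and 0.0191 for CIS3). That fit rests on 2 replicates, both with GCN2c in Cy5, and called 273 genes higher, against 106 with all replicates. Neither gene passed without replicate 1 or without replicate 3.

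Of 14 other proteases of the secretory route, the vacuole and pheromone processing, 1 rose, none fell and 13 did not pass limma, beside 1.73% of all genes as higher and 0.326% as lower, and the list median was 0.09. PRB1, the vacuolar protease B, stood at 2.22, 2.69 and 2.01, a rise of 2.31 ± 0.35 (SD, n = 3; limma adjusted p = 0.0144). At an unadjusted p under 0.05, 5 were higher and none lower, beside 10.0% and 10.7% of all genes. By SAM 1 was higher and none lower, beside 3.18% and 0.250%. KEX2, whose substrates the yapsins can also cut, stood at -0.21. PEP4 and BAR1, which encode an aspartic protease of the vacuole and a secreted one that degrades pheromone, stood at 0.18 and -0.21. PRC1, carboxypeptidase Y, had no value on replicate 1 and stood at 5.18 on replicate 3 and 1.39 on replicates 2 and 4. Its mean thus rests on 2 values that differ widely (limma adjusted p = 0.174). It passed in the fit without replicate 1 (limma adjusted p = 0.0368). That fit holds the same 2 values of PRC1, so the pass is no separate check of it.

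**Figure D5:**
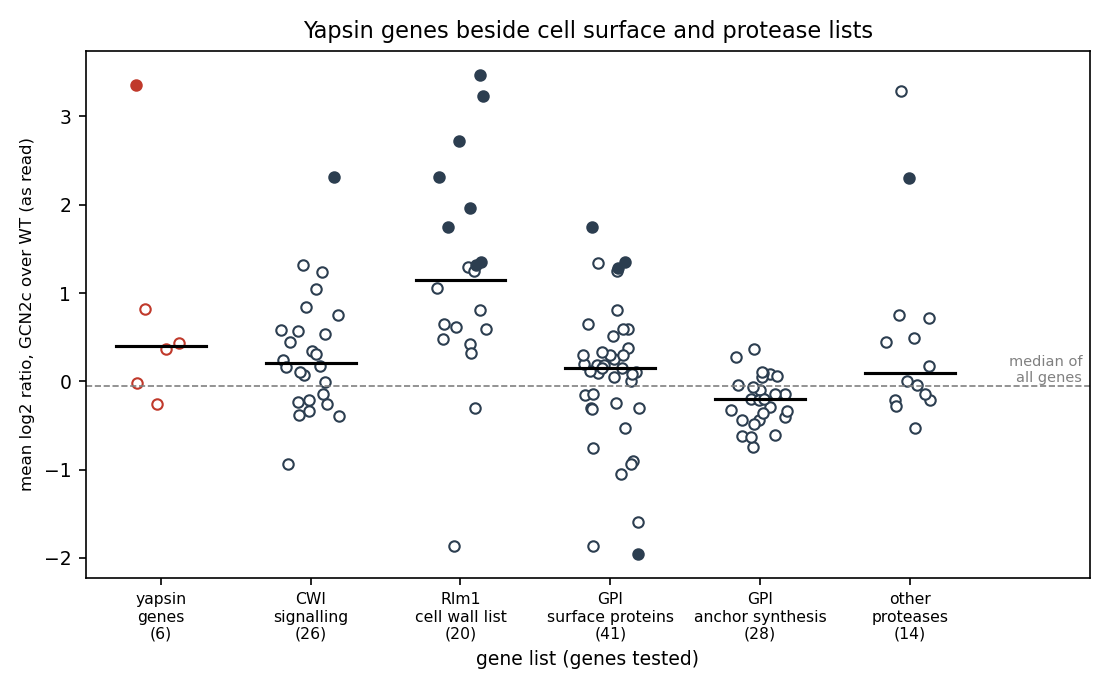
Mean log2 ratios (vertical axis) of the yapsin genes and of the genes of 5 lists, 1 point per gene (CWI, cell wall integrity; GPI, glycosylphosphatidylinositol), with filled points past limma at an adjusted p under 0.05, a bar at each list's median and a dashed line at the median of all genes. The bar of the Rlm1 list is at 1.15 and that of the yapsin genes at 0.40, of which YPS3 at 3.36 is the filled point.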

How the data were processed

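The data were the log2 ratios of 4 arrays with a pair of dyes each, as deposited. Per the labels' protocols, 30 µg of total RNA was labelled by the amino-allyl method, and spots with visible defects or without a signal above 2 times the local background in both channels were flagged. The sources used here give neither the background correction and normalization nor the log base and the numerator strain. Array medians ranged from -0.09 to -0.03, arrays held values for 6057 to 6177 rows, and 11 values lay beyond 16 in size; no spot intensity was used, so the number of arrays limits the precision.

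Replicates 2 and 4 were averaged. Genes with values on at least 3 arrays (6130) were tested against a mean of 0 with limma 3.58.1 in R 4.3.3 (two-sided, Benjamini-Hochberg over all genes, threshold 0.05), after a test on simulated data. One-class SAM, which the design text names, was an alternative with 8 sign flips. Rows were named by locus tag through the RefSeq R64 gene table, ignoring case (5662 matched, 549 did not). That table gave symbols and gene order only, so rows without a match could not count as neighbours. Sequences were not used here, and signal shared between related yapsin genes was not tested. The members and lists were chosen with earlier results of these data known. Named genes were the 6 members, their 2 nearest measured neighbours on each side, the 5 patterns nearest to YPS3, the substrate list, GCN2 and GCN4 as checks of the strain and up to 4 called genes per list; the others named were chosen after their values were seen.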

Additional observations from a re-analysis of the deposited data

How the results depend on the processing

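With replicates 2 and 4 turned in sign the mean of YPS3 was 1.40, that of YPS1 0.50 and that of YPS6 -0.078. All other yapsin means moved by less than 1 SD in all alternatives. Genes called higher numbered 106, against 472 with 4 columns as 4 replicates, 326 with a dye term and 191 by SAM. They numbered 117 without replicate 1, 61 without replicate 3 and 273 without replicates 2 and 4. Leaving out replicate 2 or 4 alone kept the near-identical other one and gave 106 again, so it is no check. Centring gave 132, scaling 86, setting values beyond 16 to missing 121, and genes with all 4 values 151. Genes called lower numbered 20, against 590 with 4 columns, 264 with a dye term and 15 by SAM. Without replicate 1 there were 31, without replicate 3 there were 13, and without replicates 2 and 4 there were 80. Centring gave 20, scaling 17, setting values beyond 16 to missing 26, and genes with all 4 values 40. With replicates 2 and 4 turned, 0 genes passed limma in either direction, with 85 higher and 165 lower at an unadjusted p under 0.05, and every list stood at 0. The turned fit assumes that the deposited ratios were not brought to 1 direction.

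The list counts below stand beside the counts over all genes given above for the same settings, which moved as well. Apart from the turned fit, limma settings not named for a list left its counts unchanged. In the integrity pathway the 1 higher gene became 7 with 4 columns, 3 without replicates 2 and 4 and 4 with a dye term. In these 3 fits 1 was lower. The higher count became 2 after centring and 3 over genes with all 4 values, beside 132 and 151 over all genes. In the Rlm1 list the 8 higher genes became 13 with 4 columns, 11 with a dye term, 10 after centring and 6 after scaling. With values beyond 16 set to missing there were 9, and over genes with all 4 values 11. Without replicate 1 there were 7, without replicate 3 there were 4, and without replicates 2 and 4 there were 12. In this list 1 was lower, TIP1, with 4 columns, with a dye term, after scaling and over genes with all 4 values. TIP1 was also lower without replicate 1, without replicate 3 and without replicates 2 and 4. In anchor synthesis 4 were lower with 4 columns and 1 with a dye term. Among GPI surface proteins the 3 higher became 6 with 4 columns, 5 with a dye term, 1 after scaling and 5 over genes with all 4 values. After centring there were 4, and with values beyond 16 set to missing 4. Without replicate 1 there was 1, without replicate 3 there were 0, and without replicates 2 and 4 there were 6. The 1 lower became 7 with 4 columns, 6 with a dye term and 2 over genes with all 4 values. It became 3 without replicate 1 and 2 without replicates 2 and 4, and stayed 1 without replicate 3. Among other proteases the 1 higher became 3 with 4 columns, 2 without replicate 1 and 2 without replicates 2 and 4. It stayed 1 without replicate 3. Of the 4 possible substrates 2 were higher with 4 columns, without replicates 2 and 4, with a dye term and over genes with all 4 values, and 1 after centring. Counting 4 columns treats near-identical arrays as separate samples, and the dye term leaves the spread between replicates 1 and 3 alone; for the other changes the cause was not tested. Each array sets both strains against each other, so the test of its log ratios against 0 is already paired by array. No further pairing was possible because the labels form 1 group.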
